A study of Mus musculus with 3 samples.

Results

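The S100 genes measured here, as RNA in tumour-bearing and control mouse lung, encode 10 members of a family of small calcium-binding proteins. They were found as every probe set of the array whose single gene symbol in the platform annotation is S100a1, S100a3, S100a4, S100a5, S100a6, S100a8, S100a9, S100a10, S100a13 or S100a14. This gave 18 probe sets for the 10 genes, of 12422 probe sets and 8251 singly named genes on the array. The rule used names only, but the 10 members were chosen with earlier results of these data known. S100a16, S100b and S100g are also on the array and were not among the 10. The 3 groups were a B16-bearing lung (B16 is a mouse melanoma line), an LLC-bearing lung (Lewis lung carcinoma) and a control lung from normal mouse, called the B16, LLC and control lung below, each with 1 Affymetrix array of total RNA from frozen tissue. Tumour cells had been placed under the skin of the back, in a model of the lung before metastatic cells arrive. Strain, age, sex, the time after tumour injection and the number of animals behind each sample are not stated by the labels. With 1 array per group there are no replicates, no test and no error bars, and each difference below describes these arrays.

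S100 proteins carry EF-hand motifs, pair into dimers and, on binding calcium, mostly expose a surface that holds target proteins. Some act inside the cell on the cytoskeleton, membranes or calcium pumps. Others are released and act as danger signals on receptors such as RAGE (encoded by Ager) and TLR4. S100a8 and S100a9 form calprotectin, an abundant cytosolic protein of neutrophils and monocytes. Both have been studied as lung signals that draw myeloid and tumour cells before metastasis, which is the setting of the series.

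Signals are the deposited intensities after 1 factor per array, and a signal at or below 23.6 counts as below the floor. Of the 18 S100 probe sets, 15 were above the floor on at least 1 array and 14 on all 3. The other 3 (the dimmest ones of S100a1, S100a3 and S100a13) lay below it throughout and have no difference. All 10 genes kept at least 1 probe set above the floor on every array. The arrays held lung markers: of 14 lung epithelial markers 13, 12 and 14 were above the floor in the B16, LLC and control lung, and of 12 endothelial markers 12 in each. Their signals were not all alike. Of the 14, 2 were at least 2-fold lower than control in each tumour-bearing lung and 0 were higher. Of all genes, 4.73% were lower in the B16 and 2.98% in the LLC lung. Cbr2 had 70.0 in the B16 lung and 52.5 in the LLC lung, against 782 in the control lung. Foxa2 was below the floor in both tumour-bearing lungs, against 112 in the control lung. Between 7303 and 7539 probe sets per array lay above the floor, and 20.2% to 21.0% of values per array were below 0.

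**Figure D1:**
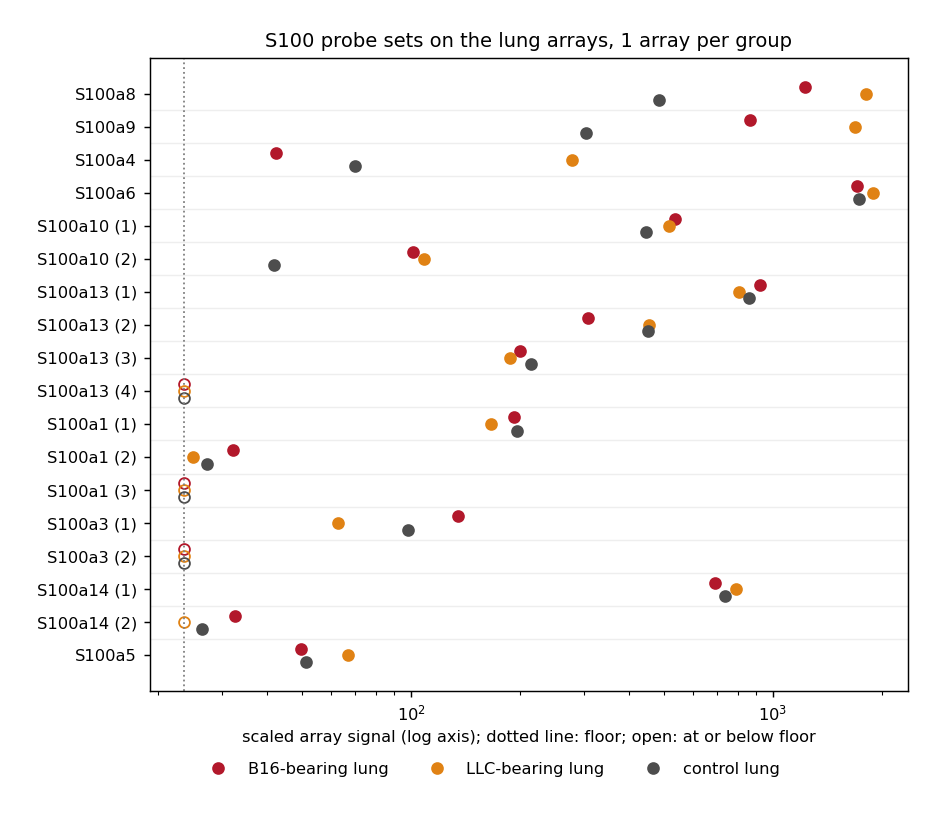
Scaled signal (log axis) of each of the 18 S100 probe sets in the B16, LLC and control lung, 1 array each. Numbers in brackets count the probe sets of a gene from the brightest, the dotted line is the floor, and open circles are values at or below it. S100a8 and S100a9 of both tumour-bearing lungs sit right of the control lung, S100a4 of the LLC lung alone does so by a wide gap, and S100a6, S100a13 and S100a14 overlie each other on their brightest probe sets.

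The first comparison asked which S100 genes were higher or lower in the B16 lung than in the control lung. Of 15 measured S100 probe sets 3 were at least 2-fold higher, 1 each of S100a8, S100a9 and S100a10, where 3.42% of all measured probe sets were. None was at least 2-fold lower, where 4.97% of all probe sets were. Of the 15, 11 differed by less than 1.5-fold, where 76.0% of all probe sets did, and the median log2 difference was 0.10, against −0.01 over all. In the LLC lung 4 of 15 S100 probe sets were at least 2-fold higher than in the control lung, the same 3 and that of S100a4, where 4.18% of all probe sets were. None was at least 2-fold lower, where 2.93% were. Here 10 of 15 differed by less than 1.5-fold, where 81.0% of all did, and the median was 0.11, against 0.00 over all. Both comparisons use the same control array. In bulk lung, fewer cells of a type and less RNA per cell cannot be told apart.

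**Figure D2:**
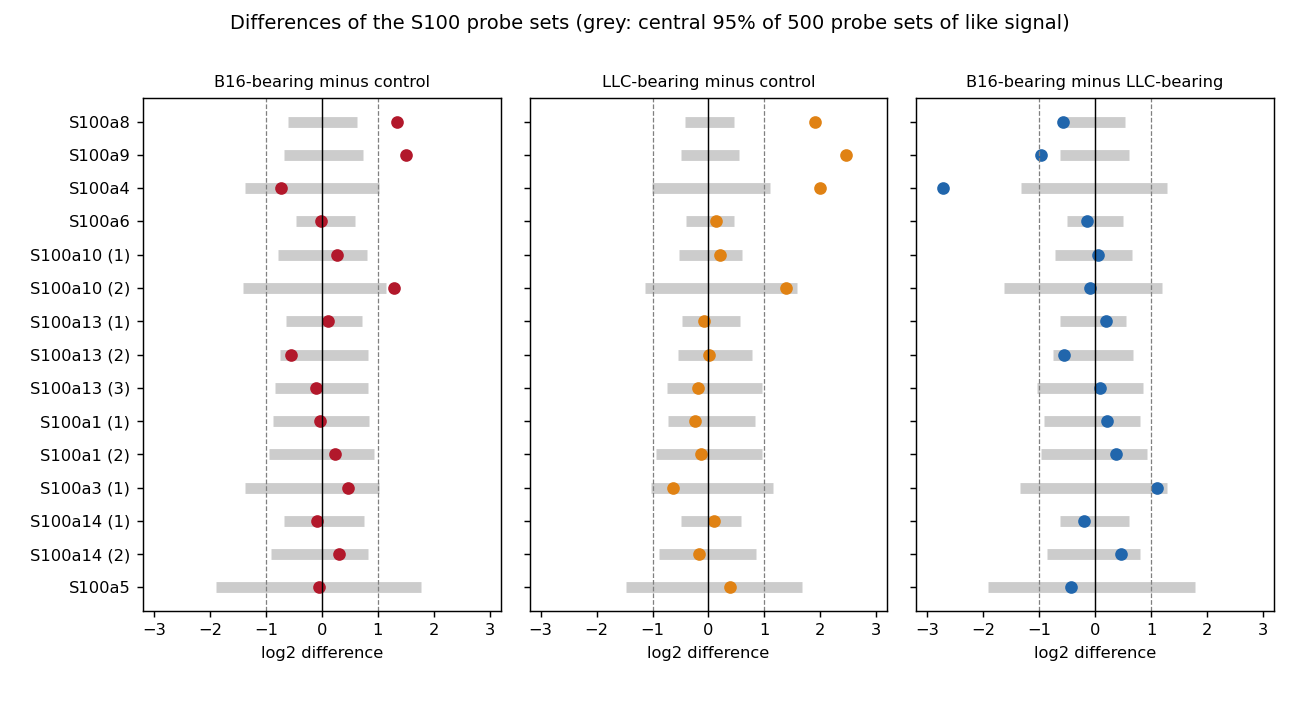
Log2 difference of the 15 measured S100 probe sets in 3 comparisons between arrays, with dashed lines at a 2-fold difference. Grey bars span the central 95% of the differences of the 500 probe sets nearest in signal. S100a8 and S100a9 lie right of their bars against control in both tumour-bearing lungs, S100a4 lies right of it in the LLC lung and left of it in the B16 against LLC comparison, and most other points lie within them.

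Both calprotectin genes were over 2-fold above control in both tumour-bearing lungs. S100a8 had a signal of 1224 in the B16 lung and 1810 in the LLC lung, against 485 in the control lung. S100a9 had 866 in the B16 lung and 1684 in the LLC lung, against 305 in the control lung. Both genes thus kept the same order of the lungs, LLC above B16 above control. The log2 difference from control was 1.34 in the B16 lung and 1.90 in the LLC lung for S100a8, and 1.51 in the B16 lung and 2.47 in the LLC lung for S100a9. Among the 500 probe sets nearest to S100a8 in signal, the central 95% of differences ran from −0.61 to 0.63 in the B16 and from −0.41 to 0.46 in the LLC lung. For S100a9 these ranges were −0.67 to 0.73 and −0.49 to 0.55, so both genes lay outside in both lungs. By rank, S100a9 was number 89 and S100a8 number 132 of 7948 measured probe sets in the B16 lung. In the LLC lung S100a9 was number 31 and S100a8 number 65 of 8021.

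The tumour-bearing lungs differed from each other in the same genes by less. S100a9 was 0.96 lower on the log2 scale in the B16 than in the LLC lung (1.94-fold), outside its range of −0.63 to 0.61. S100a8 was 0.56 lower (1.48-fold), just inside its range of −0.59 to 0.54. Neither difference can be tested with 1 array per group.

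The RefSeq annotation places all 10 members on mouse chromosome 3. In chromosome order, S100a1, S100a13, S100a14, S100a3, S100a4, S100a5, S100a6, S100a8 and S100a9 come close together, with other S100 genes between some of them, and S100a10 lies further along. The 250 bases before the start sites of S100a8, S100a9 and S100a4 are shown because these were the genes whose brightest probe set was at least 2-fold higher in a tumour-bearing lung. They come from RefSeq on GRCm38.p6, at chr3:90668821-90669070 (plus strand) for S100a8, chr3:90695722-90695971 (minus strand) for S100a9 and chr3:90603520-90603769 (plus strand) for S100a4. Each is written 5′ to 3′ and ends at the base before the start site. Capitals mark matches to the motifs named after them.
S100a8: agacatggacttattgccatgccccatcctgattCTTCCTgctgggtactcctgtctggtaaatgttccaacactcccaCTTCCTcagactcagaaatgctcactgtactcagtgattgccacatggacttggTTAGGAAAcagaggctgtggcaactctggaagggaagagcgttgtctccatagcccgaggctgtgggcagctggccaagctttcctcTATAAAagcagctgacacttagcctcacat
S100a9: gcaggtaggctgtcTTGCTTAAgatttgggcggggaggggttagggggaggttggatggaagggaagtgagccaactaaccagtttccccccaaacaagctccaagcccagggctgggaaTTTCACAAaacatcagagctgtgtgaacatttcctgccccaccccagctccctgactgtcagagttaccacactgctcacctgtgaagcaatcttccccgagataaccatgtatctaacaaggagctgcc
S100a4: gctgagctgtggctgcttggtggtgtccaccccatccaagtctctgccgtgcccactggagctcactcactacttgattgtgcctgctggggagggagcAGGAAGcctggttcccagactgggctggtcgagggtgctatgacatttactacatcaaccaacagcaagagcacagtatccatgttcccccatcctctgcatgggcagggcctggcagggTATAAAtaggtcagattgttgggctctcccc

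The letters searched on both strands were TTNNGNAA for C/EBP, TGANTCA for AP-1, TTCNNNGAA for STAT factors, CTTCCT as a core of ETS sites, TATAAA as a TATA box, and the NF-kB consensus. No capitals of different motifs overlap in these stretches. S100a8 held TATAAA from 30 to 25 bases before its start and S100a4 from 31 to 26 bases before, while the S100a9 stretch did not hold these letters. In all 32851 RefSeq promoter stretches of the same length, 12.4% held TATAAA. The C/EBP letters were found 1 time before S100a8 and 2 times before S100a9, and in 36.8% of all stretches. CTTCCT was found 2 times before S100a8 and 1 time before S100a4, and in 29.5% of all. The NF-kB consensus, TGANTCA and TTCNNNGAA had no match before these 3 genes and were held by 7.25%, 6.75% and 7.02% of all stretches. A match is a run of letters and not a measured binding site.

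S100a4, also called metastasin, binds non-muscle myosin and is found in fibroblasts, macrophages and other motile cells. It had the widest gap between the tumour-bearing lungs among the 15 measured S100 probe sets. Its signal was 42.5 in the B16 lung and 278 in the LLC lung, against 70.1 in the control lung, so the tumour-bearing lungs lay on opposite sides of the control. The log2 difference from control was −0.72 in the B16 lung, within the range of −1.37 to 1.02 of probe sets of like signal. It was 1.99 in the LLC lung (3.97-fold), outside the range of −1.01 to 1.10 and number 60 of 8021. Between the models S100a4 was 2.71 lower in the B16 lung (6.55-fold), number 22 from the bottom of 7983 probe sets. In that comparison 1 of 15 S100 probe sets, that of S100a4, was at least 2-fold lower, where 5.17% of all probe sets were, and 1, that of S100a3, was at least 2-fold higher, where 3.49% were. The B16 and control signals of S100a4 both lie below 100, and a floor at 100 gave 1.48 against control in the LLC lung and −1.48 between the models.

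Of 14 measured monocyte and macrophage markers, 8 were highest in the LLC lung, as S100a4 was, some of them by little. The share of all genes highest in the LLC lung was not counted. Above control in the LLC lung were 10 of 14, where 49.9% of all genes were. Ccr2, which guides inflammatory monocytes out of the marrow, had 27.8 in the B16 lung and 294 in the LLC lung, against 46.8 in the control lung. Plac8, a gene high in myeloid cells, had 320 in the B16 lung and 1442 in the LLC lung, against 304 in the control lung. The summed signal of the 17 monocyte and macrophage markers on the array was 4084 in the B16 and 6798 in the LLC lung, against 4964 in the control lung. In this and all sums below, a gene below the floor counts as 23.6. Over all genes, 3.23% were at least 2-fold higher and 4.73% lower than control in the B16 lung, and 3.95% higher and 2.98% lower in the LLC lung. Of these 14 markers, 2 were at least 2-fold higher than control in the LLC lung (Ccr2 and Plac8) and 1 was at least 2-fold lower in the B16 lung (Cd68), while Adgre1, Marco and Siglec1 lay below the floor on all arrays. The 14 fibroblast markers summed to 5150 in the B16 lung and 4960 in the LLC lung, against 5206 in the control lung, and 0 of 12 measured differed by 2-fold from control in either lung, with Thy1 and Fap below the floor throughout. Hepatocyte markers also differed in the LLC lung: 12 of 12 measured were above control there. Of the 14 on the array, 12 were above the floor in the LLC lung and 3 each in the B16 and control lung. A gene above the floor in the LLC lung alone can only lie above control. The 14 summed to 476 in the B16 lung and 5067 in the LLC lung, against 436 in the control lung. Most genes in the B16 and control sums count at the floor value, and Ttr and Apoh lay below the floor throughout. The part of any of these in the S100a4 signal was not tested.

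S100a3, known from the hair cuticle, was the other member with opposite signs. Its brighter probe set read 135 in the B16 and 62.8 in the LLC lung, against 98.1 in the control lung, while its second was below the floor on all arrays. The log2 differences of 0.46 (B16) and −0.64 (LLC) from control and of 1.11 between the models all lay within the ranges of probe sets of like signal (−1.34 to 1.29 for the last). The hair and stratified epithelium markers were split: 4 of 10 measured were above control in the B16 lung and 7 of 11 in the LLC lung. Krt6a, a keratin of stressed epithelium, had 120 in the B16 lung and 161 in the LLC lung, against 26.7 in the control lung, but its second probe set read 78.6 in the B16 lung and 77.9 in the LLC lung, against 74.7 in the control lung.

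S100a10, or p11, pairs with annexin A2 at membranes and differs from the rest of the family in holding its active shape without calcium. Its brightest probe set had 536 in the B16 lung and 516 in the LLC lung, against 445 in the control lung, log2 differences of 0.27 (B16) and 0.21 (LLC). The second probe set had 101 in the B16 lung and 109 in the LLC lung, against 41.7 in the control lung, differences of 1.28 (B16) and 1.38 (LLC). Both probe sets were above control in both tumour-bearing lungs, but they disagreed on the size by about 1 log2 unit. The second one matches an expressed sequence tag and its name marks relaxed design rules. Its B16 value lay outside the range of like probe sets (up to 1.15) and its LLC value inside (up to 1.58). With a floor at 100 its differences were 0.02 in the B16 lung and 0.12 in the LLC lung. Anxa2, the annexin A2 partner, had 2084 in the B16 lung and 1706 in the LLC lung, against 1481 in the control lung, and Ahnak, a scaffold bound by that complex, 1781 in the B16 lung and 1743 in the LLC lung, against 1685 in the control lung.

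S100a6, or calcyclin, was among the steadiest members. It had 1713 in the B16 lung and 1898 in the LLC lung, against 1727 in the control lung, log2 differences of −0.01 (B16) and 0.14 (LLC). It lies next to S100a8 among the measured members of the cluster, with S100a7a between them. Cacybp, the calcyclin-binding protein, had 136 in the B16 lung and 198 in the LLC lung, against 219 in the control lung.

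S100a13, which takes part in the release of the signal-peptide-free proteins of Fgf1 and Il1a, was measured by 4 probe sets. The brightest had 921 in the B16 lung and 806 in the LLC lung, against 858 in the control lung, and the third 200 in the B16 lung and 188 in the LLC lung, against 214 in the control lung. The second, built from the same database sequence as the brightest, had 309 in the B16 lung and 454 in the LLC lung, against 452 in the control lung. All 3 of these differences from control in each lung were under 1.5-fold, and their signs disagreed. Fgf1 had 403 in the B16 lung and 369 in the LLC lung, against 427 in the control lung, and Il1a 120 in the B16 lung and 119 in the LLC lung, against 105 in the control lung.

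S100a14, an epithelial member, had 693 in the B16 lung and 792 in the LLC lung, against 736 in the control lung, on a probe set built from an incomplete set of probes. Its second probe set read 32.7 in the B16 lung, below the floor in the LLC lung and 26.5 in the control lung. S100a5, known from olfactory neurons, had 49.7 in the B16 lung and 66.9 in the LLC lung, against 51.2 in the control lung. None of these differed from control by 1.5-fold.

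S100a1, best known from heart muscle, where it acts on the ryanodine receptor and the calcium pump encoded by Atp2a2, had 192 in the B16 lung and 166 in the LLC lung, against 197 in the control lung. The log2 differences were −0.03 in the B16 lung and −0.24 in the LLC lung. The name of this probe set marks it as one shared with similar sequences. Its second probe set, the only one without a mark in its name, read 32.3 in the B16 lung and 25.0 in the LLC lung, against 27.3 in the control lung. These values lie close to the floor of 23.6, and the third probe set was below the floor. Cardiac muscle markers differed by more: 12 of 12 measured were below control in the B16 lung and 11 of 12 in the LLC lung. At least 2-fold lower were 8 of them in each, where 4.73% of all genes were in the B16 lung and 2.98% in the LLC lung. All 12 were above the floor in the control lung and 8 in each tumour-bearing lung. A gene above the floor in the control lung alone can only lie below control. The 17 on the array summed to 1656 in the B16 lung and 1436 in the LLC lung, against 3045 in the control lung, and Myl2, Myl3, Ryr2, Ckm and Actn2 were below the floor throughout. Atp2a2 itself was below the floor in both tumour-bearing lungs, against 109 in control, a gap of at least 4.61-fold in each. Their part in the S100a1 signal was not tested.

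**Figure D3:**
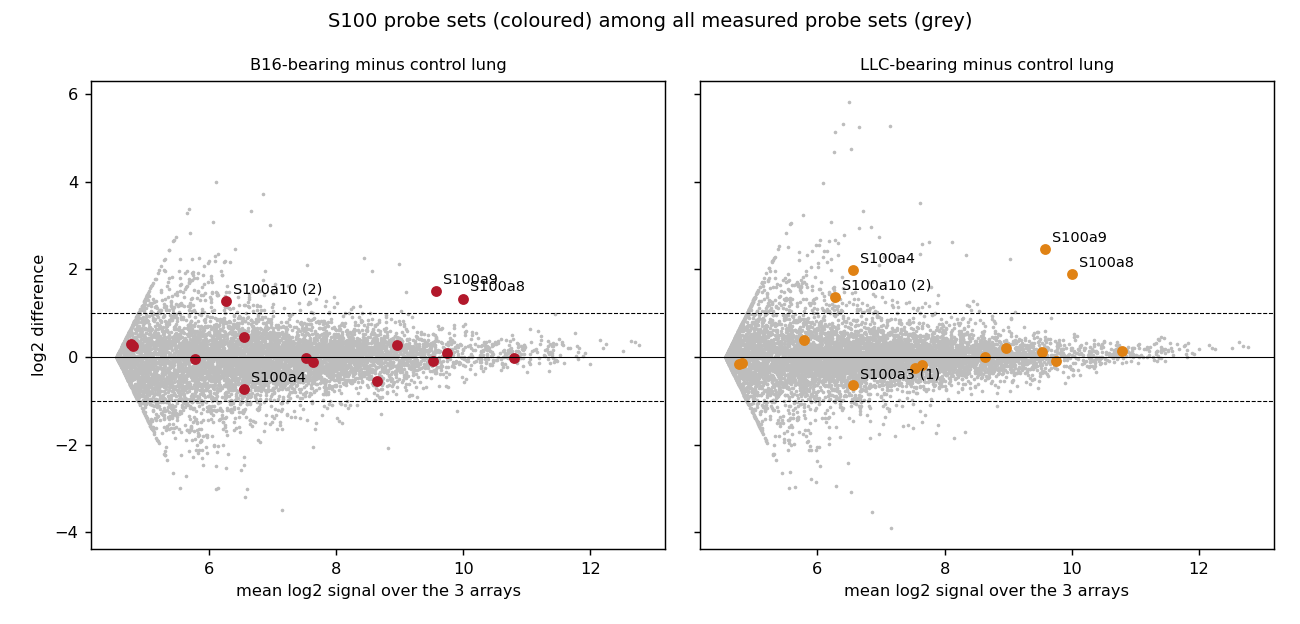
Log2 difference from control against the mean log2 signal over the 3 arrays, for all measured probe sets (grey) and the S100 probe sets (coloured), in the B16 and the LLC lung. S100 probe sets that differ by over 0.6 are named. S100a8 and S100a9 stand at high signal, where the grey cloud is narrow, and S100a4 and the second S100a10 probe set at low signal, where it is wide.

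The genes whose 2 differences from control were nearest to those of S100a8 and S100a9 were sought among 5135 other genes above the floor on all 3 arrays. The measure was the Euclidean distance over the 2 log2 differences, and both share the control array. Nearest to S100a8 were Slc7a5 (distance 0.25), an amino acid transporter, Ubn1 (0.29), Cks1b (0.36), a cell cycle kinase subunit, Gm10046 (0.36) and Zxda (0.37). Slc7a5 had 151 in the B16 lung and 174 in the LLC lung, against 53.0 in the control lung. Nearest to S100a9 were Rgs14 (0.22), a regulator of G protein signalling, Wfdc21 (0.23), Trim46 (0.24), Defb2 (0.56), a beta-defensin, and S100a8 itself (0.59). Rgs14 had 189 in the B16 lung and 299 in the LLC lung, against 61.9 in the control lung, and Wfdc21 had 88.8 in the B16 lung and 183 in the LLC lung, against 28.9 in the control lung. Seen from S100a8, S100a9 was number 18 of 5135. Apart from S100a8, the neighbours named here had control signals from 24.2 (Defb2) to 61.9 (Rgs14), against 485 for S100a8 and 305 for S100a9. At such low signals differences between arrays spread more widely.

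The next question was whether receptors and partners of S100 proteins differed in the same lungs. Of 15 receptors and signalling adaptors measured, 6 were above control in the B16 lung and 8 in the LLC lung, with medians of −0.12 and 0.03, against −0.01 and −0.00 over all genes. At 2-fold or more, 1 was lower in the B16 lung (Cd68, with 46.8 in the B16 lung and 155 in the LLC lung, against 122 in the control lung) and 1 was higher in the LLC lung, where 4.73% and 3.95% of all genes were. The higher one was Myd88, the adaptor of toll-like receptors, with 66.6 in the B16 lung and 110 in the LLC lung, against 52.9 in the control lung. Cd14, the co-receptor of TLR4, had 277 in the B16 lung and 339 in the LLC lung, against 204 in the control lung. Ager, the RAGE gene and a marker of type 1 alveolar cells, had 3141 in the B16 lung and 2270 in the LLC lung, against 2432 in the control lung. Of 18 binding partners measured, 9 were above control in the B16 lung and 11 in the LLC lung, with medians of −0.01 and 0.06, and Atp2a2 was the only one to differ by 2-fold or more from control. Rac2 and Cybb, of the phagocyte oxidase that binds calprotectin, were 1.02 and 1.05 lower on the log2 scale in the B16 than in the LLC lung. Rac2 had 223 in the B16 lung and 452 in the LLC lung, against 271 in the control lung, and Cybb 50.2 in the B16 lung and 104 in the LLC lung, against 71.1 in the control lung.

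**Figure D4:**
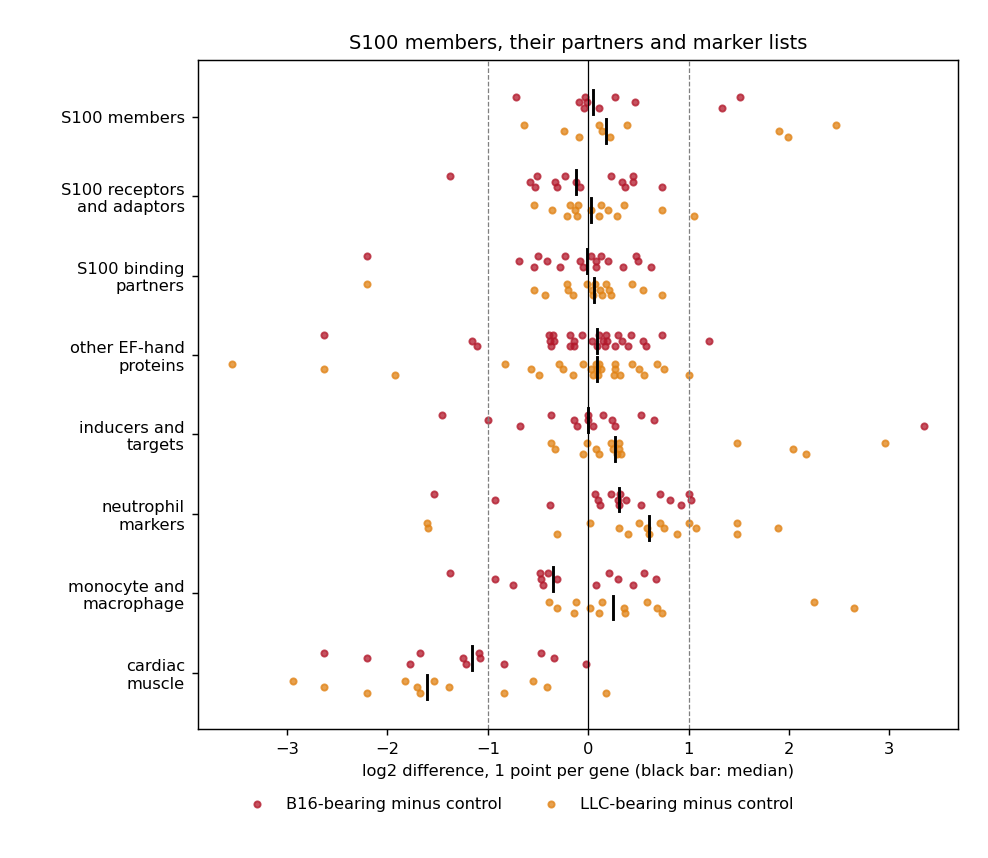
Log2 difference from control of each measured gene of 8 lists, by its brightest probe set, in the B16 and LLC lung, with the median as a black bar and dashed lines at a 2-fold difference. The top row holds the 10 S100 genes. The receptor, partner and EF-hand lists have medians from −0.12 to 0.09, the median of the neutrophil list lies right of 0 and that of the cardiac muscle list left of it in both lungs, with single neutrophil markers far left.

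Inducers and targets linked to calprotectin in the lung model differed by gene. Saa3, a serum amyloid A gene reported to lie downstream of calprotectin, had 239 in the B16 lung and 183 in the LLC lung while the control lung stayed under the floor, so its folds are at least 10.1 and 7.76. Saa2 exceeded control by at least 4.11-fold in the LLC lung on its brightest probe set, and did not reach the floor in the B16 or control lung. Its second probe set read 56.5 in the LLC lung and lay below the floor in the others, a log2 difference of at least 1.26. Hepatocyte markers were also higher in the LLC lung, and their part in the Saa2 signal was not tested. Il1b had 48.9 in the B16 lung and 182 in the LLC lung, against 40.6 in the control lung, and Mmp9 had 77.6 in the B16 lung and 150 in the LLC lung, against 54.0 in the control lung. Both followed the order of S100a8 and S100a9, LLC above B16 above control. The B16 lung exceeded control by 1.20-fold for Il1b and 1.44-fold for Mmp9, and the other Mmp9 probe set did not reach the floor in any lung. Cebpd kept this order by little, while Saa3, Vegfa, Cebpb and Ccl5 did not keep it. How many of all genes keep this order was not counted. Vegfa, a factor that induces calprotectin in the model, had 663 in the B16 lung and 704 in the LLC lung, against 730 in the control lung, while Tnf and Il6 were below the floor on all arrays. Cebpb, a C/EBP factor of myeloid cells, had 669 in the B16 lung and 817 in the LLC lung, against 670 in the control lung. Cebpd, another, had 1263 in the B16 lung and 1321 in the LLC lung, against 1222 in the control lung. Of 16 measured in the LLC lung 4 were at least 2-fold higher and 0 lower, where 3.95% and 2.98% of all genes were. Of 15 in the B16 lung 1 was higher (Saa3) and 1 lower (Ccl5, with 127 in the B16 lung and 414 in the LLC lung, against 349 in the control lung), where 3.23% of all genes were higher and 4.73% lower.

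Neutrophil markers, taken as a list of 20 genes on the array, were above control in 14 of 17 measured in each tumour-bearing lung. Of all genes, 49.4% were above control in the B16 lung and 49.9% in the LLC lung. The 17 were above the floor in both tumour-bearing lungs but only 14 in the control lung, and the rest can only lie above control. The medians were 0.30 in the B16 and 0.61 in the LLC lung, both below the differences of S100a8 and S100a9. Of the 17, 2 were at least 2-fold higher in the B16 lung, Ltf, which encodes lactoferrin, and Il1r2, an interleukin 1 decoy receptor, where 3.23% of all genes were. In the LLC lung 5 were, Ltf, Il1r2, Mmp9, Pglyrp1 and Prtn3, where 3.95% of all genes were. In the other direction 1 was at least 2-fold lower in the B16 lung (Fpr2) and 2 in the LLC lung (Padi4 and Gsr), where 4.73% and 2.98% of all genes were. Ltf had 109 in the B16 lung, just past the line at 2.01-fold, and 151 in the LLC lung, against 54.3 in the control lung. Il1r2 had 47.9 in the B16 lung and 87.4 in the LLC lung and was below the floor in the control lung, so its folds are at least 2.03 and 3.70. Its second probe set read 44.7 in the B16 lung and 79.9 in the LLC lung, log2 differences of at least 0.92 and 1.76. Gsr, the glutathione reductase, had 95.1 in the B16 lung and 41.0 in the LLC lung, against 124 in the control lung. The summed signal of the list was 2036 in the B16 and 2544 in the LLC lung, against 2041 in the control lung, and Ctsg, Ngp and Mmp8 were below the floor throughout. Chil3, a chitinase-like gene that macrophages express too, weighed on this sum, with 288 in the B16 lung and 442 in the LLC lung, against 549.5 in the control lung. Without it the sum was 1748 in the B16 lung and 2102 in the LLC lung, against 1491 in the control lung. B lymphocyte markers ran the other way: 8 of 9 measured were below control in each tumour-bearing lung, with medians of −0.69 in the B16 lung and −1.13 in the LLC lung. All 9 were above the floor in the control lung, but only 4 in the B16 lung and 6 in the LLC lung. A gene above it in the control lung alone can only lie below control. Of these 9, 4 were at least 2-fold lower in the B16 lung and 5 in the LLC lung, where 4.73% and 2.98% of all genes were. All 4 folds in the B16 lung are lower bounds, and 0 markers were at least 2-fold higher in either lung. The 12 on the array summed to 847 in the B16 lung and 847 in the LLC lung, against 1248 in the control lung, with genes below the floor counted at 23.6. The part of cell numbers in the calprotectin signals was not tested.

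Further backgrounds were set beside the family. Other EF-hand calcium sensors and buffers had medians of 0.09 in both lungs. In the B16 lung 1 of 29 measured was at least 2-fold higher and 3 were lower, where 3.23% and 4.73% of all genes were. In the LLC lung 1 of 27 was higher and 3 were lower, where 3.95% and 2.98% of all genes were. Pef1, a penta-EF-hand protein, had 54.4 in the B16 lung and 47.4 in the LLC lung while the control lung stayed under the floor, so its folds are at least 2.31 and 2.01. Sri, which encodes sorcin, had 41.7 in the B16 lung and was below the floor in the LLC lung, against 89.8 in the control lung. Tnnc1, a troponin of heart and slow muscle, fell short of control by at least 6.22-fold in each, and Cetn2, a centrin, was 2.23-fold lower in the B16 lung. Pvalb, a calcium buffer of fast muscle, had 242 in the B16 lung and was below the floor in the LLC lung, against 276 in the control lung. These values come from a probe set built from an incomplete set of probes. The other Pvalb probe set did not reach the floor in any lung, so it gives no second reading of the LLC difference. Genes near the cluster on chromosome 3 had medians of 0.09 in both lungs, with 1 of 16 measured in the B16 lung and 2 of 18 in the LLC lung at least 2-fold higher, where 3.23% and 3.95% of all genes were, and 0 lower. In all, 17 genes stand in more than 1 list, Ager, Atp2a2, Cd14, Cd68, Chil3, Mmp9, Ryr2, Thy1 and Tnnc1 among them. Near the cluster, Sprr2i, a small proline-rich protein gene of the epidermal complex, had 268 in the B16 lung and 221 in the LLC lung, against 33.2 in the control lung.

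Among S100 genes outside the 10, S100b, a glial and dendritic member, had 25.1 in the B16 lung and 29.1 in the LLC lung, close to the floor, while the control lung stayed under it. S100g, an intestinal calcium buffer, had 139 in the B16 and 79.0 in the LLC lung, against 74.4 in the control lung, on its brightest probe set. Its second read 18.2 in the B16 lung and 29.2 in the LLC lung, against 22.2 in the control lung, where the floor leaves the LLC value alone. S100a16 was below the floor on all arrays.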

How the data were processed

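Total RNA was extracted from frozen lungs with TRIzol and labelled as biotinylated cRNA for Affymetrix arrays, per the labels' protocols. The deposited values are linear intensities, with 1 value for each probe set of an array. Some are negative, and neither the labels nor the files state the software or how background was handled. The 66 manufacturer controls were left out. Each array was multiplied by 1 factor (0.987 B16, 1.01 LLC, 1 control) chosen so that the brighter probe sets (mean above the median) had a median log2 ratio of 0 against control. A floor at the 40th percentile over the scaled arrays (23.6) was applied before log2. It was also applied before the signals of a list were summed, so a gene below it adds 23.6 to a sum. A probe set was measured in a comparison if either array exceeded that floor, and a fold against a side at the floor is a lower bound. A gene of a list was represented by its brightest probe set with 1 symbol; 0 symbols needed an update against RefSeq.

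With 1 array per group no test was made. The share past 2-fold of all measured probe sets stands beside counts of S100 probe sets, that of all genes beside counts of list genes, and the central 95% of the 500 probe sets nearest in mean log2 signal beside single differences. Members and lists were chosen with earlier results of these data known. All 10 members were named. The rule for other genes took list genes at least 2-fold different from control in both tumour-bearing lungs in 1 direction, the 4 per list with the largest mean absolute difference, and the 5 nearest to S100a8 and to S100a9; values are given for those a result turns on. Anxa2, Ahnak, Cacybp, Fgf1, Il1a, Ager, Vegfa, Tnf, Il6, Cebpb, Cebpd, Ccl5, S100a16, Fpr2, Padi4, Pglyrp1, Prtn3, Cetn2 and the markers below the floor on all arrays were named after their values were seen. Promoter stretches came from RefSeq, which held 8 of the 10 members. The scaling and difference steps were tested on simulated data, with changes planted in bright probe sets alone. Only the array factors and the planted increases had to be recovered, so that test does not cover signals near the floor. Alternatives were other floors, scalings, a pseudocount, probe set averaging and another fold line. The neutrophil marker sum without Chil3 was chosen after seeing the data. Python 3.11.15, numpy 2.4.6 and pandas 2.3.3 were used.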

Additional observations from a re-analysis of the deposited data

Results flagged for a closer look

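S100a4 and S100a3 were each on opposite sides of the control in the tumour-bearing lungs, with at least 2-fold between the models. S100a4 was below control in the B16 and above it in the LLC lung, with a log2 difference of −2.71 between the B16 and LLC lung. S100a3 was above control in the B16 and below it in the LLC lung, with a difference of 1.11 between them. With 1 array per group neither difference was tested.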

How the results depend on the processing

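S100a8 and S100a9 kept their direction in all 3 comparisons under the 7 alternatives that apply to them: against control S100a8 ran from 1.25 to 1.45 in the B16 and from 1.80 to 1.90 in the LLC lung, and S100a9 from 1.37 to 1.62 in the B16 and from 2.29 to 2.47 in the LLC lung. S100a4 in the LLC lung against control was 1.45 at the lowest, with a pseudocount of 50. The count of S100 probe sets at least 2-fold different between the B16 and LLC lung, 2 as reported, was 1 with the floor at the 60th percentile, with the floor at a signal of 100 and with a pseudocount of 50, where S100a3 fell short of 2-fold. Under the same settings the counts against control were 2 in the B16 lung, against 3 as reported, and 3 in the LLC lung, against 4. At a line of 1.5-fold the counts were 4 and 5 against control and 3 between the models. Of 237 recomputed member values 220 moved by less than the robust SD of the differences between the models among the 500 probe sets nearest in signal, 17 by more, and 0 of the values past 2-fold changed sign. With the floor at 100 the share of all probe sets at least 2-fold different was 1.92%, 1.79% and 2.61% in the 3 comparisons, against 8.39%, 7.11% and 8.67% as reported. It was 2.98%, 2.59% and 3.58% with the floor at the 60th percentile, 2.39%, 2.49% and 3.34% with a pseudocount of 50, 16.4%, 14.3% and 16.7% with no floor, and 24.0%, 19.0% and 22.8% at a line of 1.5-fold. Scaling each array by its overall median moved the median difference of the B16 lung from control to 0.09, against −0.01 as reported. The share of higher probe sets among those past 2-fold became 52.1%, against 40.8%, and between the models 51.5%, against 40.3%. Under that scaling the small negative differences of S100a1, S100a5, S100a6 and S100a14 from control in the B16 lung turned positive, at most 0.10. Averaging the probe sets of S100a10 gave 0.77 in the B16 lung and 0.80 in the LLC lung against control. No paired analysis was possible because each group has 1 array, and no array could be left out. The number of arrays limits the precision, and signals near the floor limit S100a1, S100a3, S100a4 and S100a5.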
